A study of Homo sapiens with 18 samples.

Results

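Transcripts of 9 genes for tissue forms of glucose uptake and glycolysis were followed in 2 human cell lines: the glucose transporters SLC2A1, SLC2A2 and SLC2A3, the hexokinases HK1 and HK2, the pyruvate kinases PKM and PKLR, the aldolase ALDOC and the lactate dehydrogenase subunit LDHB. They were chosen by name, as the rows whose Ensembl ID maps to these symbols, and are 9 of the 60612 rows of the count table. The series belongs to work on a self-regulating gene therapy for Rett syndrome and holds 18 RNA sequencing libraries. HepG2, a line from a liver cancer labelled hepatocellular carcinoma, was lipid-transfected with 100 ng of plasmid in each well, and SH-SY5Y, a cloned subline of a neuroblastoma, was nucleofected. The control plasmid encoded mNeonGreen, a green fluorescent protein, and the EXACT1 plasmid encoded mNeonGreen plus the miRNA of that name, with 3 libraries for each plasmid in each line. Both lines were kept in the same high-glucose medium. The line, its culture and the way the plasmid was delivered go together, so they cannot be told apart.

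Glucose enters a cell through facilitative transporters, is trapped by hexokinase as glucose 6-phosphate, and is split by aldolase on its way to pyruvate, which pyruvate kinase forms and lactate dehydrogenase exchanges with lactate. Several of these steps have forms encoded by separate genes. Adult liver is known for the low-affinity transporter GLUT2 (SLC2A2) and liver pyruvate kinase (PKLR), and brain for the high-affinity transporters GLUT1 and GLUT3 (SLC2A1 and SLC2A3), hexokinase 1 and aldolase C. HK2, the M2 splice form of PKM and the LDHA subunit are commonly abundant in dividing and cancer cells, while LDHB, the heart-type subunit, is prominent in oxidative tissue.

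The start regions of these genes differ in base composition, and 6 windows are shown: those of SLC2A2, PKLR and LDHB, the members with the widest line differences that have a window, and those of ALDOC and HK2 that hold the E-box named below. RefSeq (GRCh38.p14) gave 16 windows, from 250 bases before to 50 bases after a start, for 8 of the 9 members. Both strands were searched for 5 motifs. They were CACGTG, an E-box; ACGTG, the core of the hypoxia response element, which every CACGTG contains; and GTTAAT, letters of the HNF1 site. The other two were CAAAG, letters of the HNF4 site, and the CCAAT box. Capitals mark each match to the E-box or to the hypoxia core, which reads CACGT where it lies on the opposite strand. The window of SLC2A2 is chr3:171026671-171026970, minus strand. The 2 windows of PKLR are chr1:155300903-155301202 and chr1:155301389-155301688, minus strand, the second lying upstream of the first. The second window of HK2 is chr2:74834920-74835219, plus strand. The window of ALDOC is chr17:28576846-28577145 and that of LDHB is chr12:21657793-21658092, both on the minus strand.
SLC2A2: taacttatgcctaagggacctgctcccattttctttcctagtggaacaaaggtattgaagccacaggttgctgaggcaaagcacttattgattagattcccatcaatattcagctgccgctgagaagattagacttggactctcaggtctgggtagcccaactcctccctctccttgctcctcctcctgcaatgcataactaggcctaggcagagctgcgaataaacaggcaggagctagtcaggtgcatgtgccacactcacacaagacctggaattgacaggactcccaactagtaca
PKLR, downstream start: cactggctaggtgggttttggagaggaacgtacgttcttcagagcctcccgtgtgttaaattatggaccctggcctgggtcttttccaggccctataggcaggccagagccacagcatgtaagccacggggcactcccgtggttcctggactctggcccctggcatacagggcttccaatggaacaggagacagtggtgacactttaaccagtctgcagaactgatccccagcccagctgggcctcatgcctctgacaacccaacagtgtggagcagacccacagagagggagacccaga
PKLR, upstream start: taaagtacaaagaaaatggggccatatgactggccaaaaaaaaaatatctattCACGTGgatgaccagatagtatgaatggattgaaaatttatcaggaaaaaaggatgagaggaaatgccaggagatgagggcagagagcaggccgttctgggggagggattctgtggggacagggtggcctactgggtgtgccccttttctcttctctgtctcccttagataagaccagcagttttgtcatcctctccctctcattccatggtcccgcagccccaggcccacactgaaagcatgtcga
ALDOC: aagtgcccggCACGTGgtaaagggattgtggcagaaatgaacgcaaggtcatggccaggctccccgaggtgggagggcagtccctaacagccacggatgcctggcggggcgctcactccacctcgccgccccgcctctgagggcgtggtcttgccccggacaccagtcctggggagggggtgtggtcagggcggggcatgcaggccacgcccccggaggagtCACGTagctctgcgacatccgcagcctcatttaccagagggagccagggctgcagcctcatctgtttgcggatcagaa
HK2, second start: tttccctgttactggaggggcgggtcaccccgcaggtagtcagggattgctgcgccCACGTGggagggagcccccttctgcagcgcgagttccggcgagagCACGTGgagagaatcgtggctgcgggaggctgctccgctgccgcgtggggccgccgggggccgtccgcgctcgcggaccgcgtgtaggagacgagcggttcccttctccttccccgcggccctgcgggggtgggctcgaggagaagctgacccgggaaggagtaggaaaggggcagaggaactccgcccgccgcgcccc
LDHB: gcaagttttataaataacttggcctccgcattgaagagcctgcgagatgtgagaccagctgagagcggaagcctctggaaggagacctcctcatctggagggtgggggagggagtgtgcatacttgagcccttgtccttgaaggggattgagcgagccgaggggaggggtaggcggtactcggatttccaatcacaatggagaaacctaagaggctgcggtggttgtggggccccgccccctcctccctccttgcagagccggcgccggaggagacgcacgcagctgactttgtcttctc

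CpG pairs were sparse in the windows of SLC2A2 and PKLR and in most windows of HK1. The ratio of observed to expected CpG was 0.11 for SLC2A2 and 0.20 and 0.23 for PKLR, against 0.80 for SLC2A1, 0.98 for PKM, 0.94 and 0.89 for HK2, 0.58 for ALDOC and 0.55 for LDHB. HK1 had 7 windows, with ratios of 0, 0.060, 0.061, 0.062, 0.23, 0.50 and 0.90, so sparse CpG was not particular to the liver forms. CACGTG was found once in the upstream window of PKLR, once in that of ALDOC and at 2 places in the second window of HK2. Of all 35116 promoter windows, 7.26% held this E-box. The hypoxia core ACGTG was found in both HK2 windows, the upstream PKLR window and the ALDOC window, and in 21.4% of all windows. GTTAAT was found in none of the 16 member windows and in 6.88% of all windows. CAAAG (47.5% of all windows) was found in windows of SLC2A2, HK1, PKM, PKLR and LDHB. CCAAT (34.6%) was found in windows of SLC2A1, HK1, HK2, PKM, PKLR and LDHB. These matches describe letters in the windows only.

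Library totals lay between 66056962 and 77100150 counts. The 6 HEK293A libraries were not used for named genes, because their values do not follow the row IDs: their mean Spearman rho was -0.09 with HepG2 and -0.10 with SH-SY5Y, against 0.79 between those 2 lines. Of 10 hepatocyte markers, 10 exceeded a CPM (counts scaled to library size) of 1 in HepG2 and 8 in SH-SY5Y, with a median of 7361 against 10.8 CPM. Of 10 sympathetic neuroblast markers, 9 exceeded 1 CPM in SH-SY5Y and 2 in HepG2, with a median of 249 against 0.335 CPM. Each library of the opposite line held some of these transcripts: the hepatocyte list summed to between 166 and 235 CPM in SH-SY5Y (at least 111552 in HepG2), and the neuroblast list to between 4.67 and 7.79 CPM in HepG2 (at least 3822 in SH-SY5Y). Of 10 fibroblast or mesenchymal markers, 9 exceeded 1 CPM in SH-SY5Y and 3 in HepG2. The list summed to between 436 and 562 CPM in SH-SY5Y and between 6626 and 20883 CPM in HepG2, where FN1 made up nearly all of it. Within the list, DCN stood at 31.0 and 21.1 CPM in the 2 SH-SY5Y libraries numbered 1 (control and EXACT1) and at or below 4.37 CPM in the other 4. LUM stood at 52.2 and 33.5 against at most 17.9 CPM. COL3A1, COL1A1 and FBN1 were also highest in those 2 libraries. COL1A2, FN1 and PDGFRB overlapped the other 4, TWIST1 was lowest in those 2 (168 and 166 against 194 to 292 CPM), and PRRX1 was at 0 throughout. The part of these transcripts in the member values below was not tested. In each line 1 library stood apart, EXACT1 replicate 1 of HepG2 and control replicate 2 of SH-SY5Y. Ribosomal protein genes took 9.83% and 13.0% of their counts, against 4.64% to 4.79% in the other HepG2 and 5.47% to 5.92% in the other SH-SY5Y libraries, and the results most affected by these 2 libraries are given with and without them.

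All 9 members differed between the lines, 7 higher in HepG2 and 2, HK1 and LDHB, higher in SH-SY5Y (edgeR quasi-likelihood test, Benjamini-Hochberg adjusted p under 0.05). Of the 22009 genes tested, 28.5% were called higher in HepG2 and 36.3% higher in SH-SY5Y. In bulk RNA, fewer cells with a transcript and less of it per cell cannot be told apart. The median log2 difference, HepG2 minus SH-SY5Y, was 2.46 over the members and -0.25 over all genes tested. Scaling by library totals alone moved the median of all genes to -1.05 and the calls from 6268 higher and 7979 lower in HepG2 to 4183 higher and 11744 lower. Under that scaling 8 members were called, 6 higher and 2 lower, and PKM was not. For 8 members the 6 HepG2 libraries did not overlap the 6 SH-SY5Y libraries, which held for 46.6% of all genes tested, and PKM was the exception. Levels below are CPM on TMM-scaled library sizes of the 12 libraries. Differences are log2 fold changes, HepG2 minus SH-SY5Y, with the standard error (SE) of the edgeR test. SLC2A2, SLC2A3 and PKLR were low in SH-SY5Y and LDHB was low in HepG2. Markers of the opposite line were also found at low levels. Hepatocyte markers summed to 166 to 235 CPM in SH-SY5Y (at least 111552 in HepG2), and neuroblast markers to 4.67 to 7.79 CPM in HepG2 (at least 3822 in SH-SY5Y). How much of the low member values is of the same kind was not tested, so the size of these differences is uncertain.

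SLC2A1 (ENSG00000117394, chromosome 1, 42925375 to 42959176, minus strand, GRCh38) encodes GLUT1, the transporter of the blood-brain barrier and of most dividing cells. It stood at 361, 387 and 421 CPM in HepG2 control and 570, 395 and 448 CPM in HepG2 EXACT1 (replicates 1 to 3). In SH-SY5Y it stood at 65.1, 128 and 76.7 CPM with control and 77.7, 81.6 and 69.6 CPM with EXACT1. Every HepG2 library lay above every SH-SY5Y library, by a log2 difference of 2.37 (SE 0.19, edgeR adjusted p = 1.15e-06). SLC2A1-AS1 overlaps it on the opposite strand. The kit marks strand, but the strand setting of the counting is not given in the sources used here, so reads of the pair may be mixed.

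SLC2A2 (ENSG00000163581, chromosome 3, 170996348 to 171026750, minus strand) encodes GLUT2, which carries glucose in and out of hepatocytes and pancreatic beta cells. It was detected at 20.5, 27.3 and 28.0 CPM in HepG2 control and at 4.33, 25.4 and 28.0 CPM in HepG2 EXACT1, the low value being the library that stood apart. SH-SY5Y held 36 SLC2A2 counts over its 6 libraries, of which 24 lay in control replicate 2, and 3 libraries had none. The log2 difference was 8.54 (SE 1.05, edgeR adjusted p = 3.17e-05) and 10.04 (SE 0.51) without the 2 libraries that stood apart.

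SLC2A3 (ENSG00000059804, chromosome 12, 7919230 to 7936275, minus strand) encodes GLUT3, known as the neuronal transporter. HepG2 control had 1151, 1316 and 1379 CPM and HepG2 EXACT1 had 596, 1344 and 1219 CPM. The SH-SY5Y values were 1.31, 2.91 and 1.81 CPM with control and 1.32, 1.95 and 2.18 CPM with EXACT1. The lines were separated by a log2 difference of 9.25 (SE 0.36, edgeR adjusted p = 6.47e-09), with HepG2 the higher. SLC2A14, a near-identical copy of SLC2A3 on the same chromosome, averaged 69.2 ± 16.3 CPM in HepG2 against 0.126 ± 0.0509 in SH-SY5Y (SD, n = 6), so the division of reads between the pair is uncertain. The SLC2A3 pseudogenes listed reached at most 0.201 CPM.

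HK1 (ENSG00000156515, chromosome 10, 69269984 to 69401884, plus strand), the hexokinase of brain and red cells that binds mitochondria, was lower in HepG2. It stood at 12.6, 10.5 and 10.4 CPM in HepG2 control, at 18.8, 12.2 and 11.7 CPM in HepG2 EXACT1, and between 107 and 119 CPM in all 6 SH-SY5Y libraries. The log2 difference was -3.16 (SE 0.17, edgeR adjusted p = 4.81e-08). SH-SY5Y control replicate 2 stood at 117 CPM, inside the range of the other SH-SY5Y libraries.

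HK2 (ENSG00000159399, chromosome 2, 74833981 to 74893359, plus strand), the insulin-responsive hexokinase of muscle and fat that many tumours express, went the other way. HepG2 had 591, 612 and 557 CPM with control and 134, 609 and 517 CPM with EXACT1. SH-SY5Y had 59.1, 17.0 and 77.3 CPM with control and 77.6, 81.4 and 70.6 CPM with EXACT1. HepG2 was higher by a log2 difference of 2.99 (SE 0.42, edgeR adjusted p = 9.15e-05). The library that stood apart was the lowest of its line in both lines.

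PKLR (ENSG00000143627, chromosome 1, 155289293 to 155301438, minus strand) encodes the liver and red cell pyruvate kinase, with the red cell form starting at the upstream window and the liver form at the downstream one. It stood at 64.6, 75.8 and 66.1 CPM in HepG2 control and 181, 83.0 and 64.7 CPM in HepG2 EXACT1. No SH-SY5Y library exceeded 0.161 CPM. The log2 difference was 9.53 (SE 0.43, edgeR adjusted p = 1.79e-08). Gene counts do not separate the 2 starts. Of 10 erythroid markers, 1 (EPOR) exceeded 1 CPM in each line, and 4 were at 0 in HepG2 and 5 in SH-SY5Y, HBB among them in both. The list summed to between 4.65 and 17.4 CPM in HepG2 and between 9.28 and 26.2 CPM in SH-SY5Y. Another globin gene, HBA1, was detected in all 6 HepG2 libraries, at 3.01 CPM in EXACT1 replicate 1 and 0.435 to 0.753 CPM in the other 5, and at or below 0.320 CPM in SH-SY5Y. The part of such transcripts in the PKLR values was not tested. HCN3 overlaps PKLR on the opposite strand.

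PKM (ENSG00000067225, chromosome 15, 72199029 to 72231822, minus strand) encodes the M1 and M2 pyruvate kinases of most other tissues, which gene counts do not separate. HepG2 had 1586, 1553 and 1506 CPM with control and 4633, 1591 and 1578 CPM with EXACT1. SH-SY5Y had 852, 2081 and 859 CPM with control and 853, 897 and 820 CPM with EXACT1. SH-SY5Y control replicate 2 thus lay above 5 of the 6 HepG2 libraries. The log2 difference of 0.95 (SE 0.32, edgeR adjusted p = 0.0223) was the smallest in size of the 9. It was 0.12 (edgeR adjusted p = 0.623) with library totals, 0.28 (edgeR adjusted p = 0.565) with control libraries only, and 0.88 (SE 0.04) without the 2 libraries that stood apart. Leaving out SH-SY5Y control replicate 1 or 3 also ended the call (edgeR adjusted p = 0.0537 and 0.0527).

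ALDOC (ENSG00000109107, chromosome 17, 28573115 to 28577264, minus strand), the aldolase of brain, was higher in the liver line. HepG2 had 150, 148 and 137 CPM with control and 558, 160 and 143 CPM with EXACT1. SH-SY5Y had 26.5, 91.8 and 26.4 CPM with control and 28.5, 33.6 and 23.7 CPM with EXACT1. The log2 difference was 2.46 (SE 0.43, edgeR adjusted p = 0.000441). The library that stood apart was the highest of its line in both lines.

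LDHB (ENSG00000111716, chromosome 12, 21635342 to 21757857, minus strand), whose subunit favours the conversion of lactate to pyruvate, was low in HepG2. Its values there were 1.34, 0.352 and 0.874 CPM with control and 1.68, 1.27 and 1.12 CPM with EXACT1. In SH-SY5Y it stood at 680, 659 and 683 CPM with control and 676, 679 and 667 CPM with EXACT1, a range of 659 to 683 CPM over the 6 libraries. The log2 difference was -9.29 (SE 0.35, edgeR adjusted p = 5.62e-09).

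**Figure D1:**
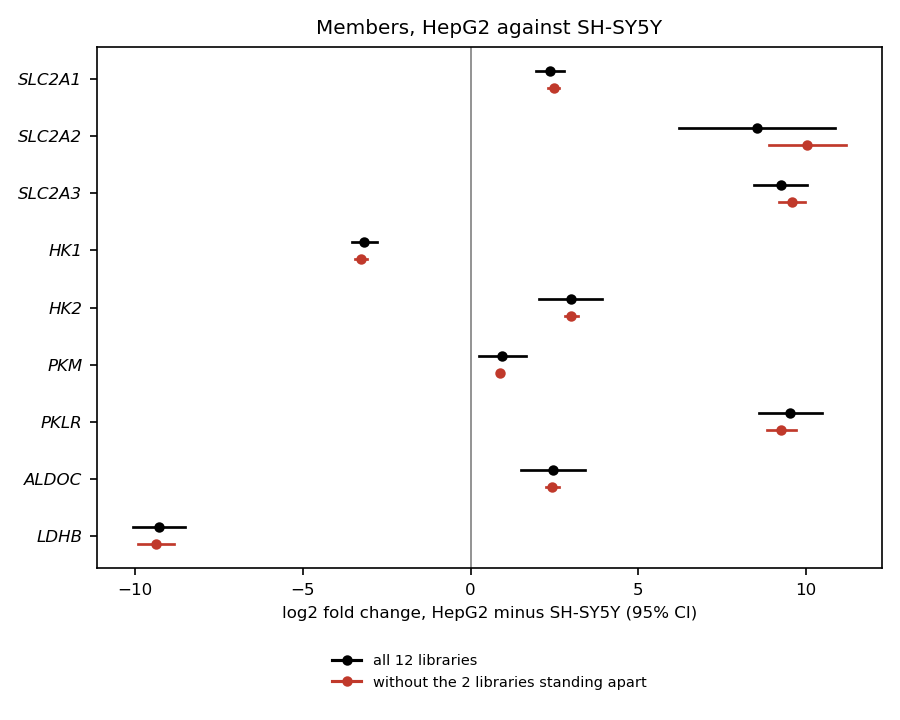
Log2 fold change, HepG2 minus SH-SY5Y, for each member with its 95% confidence interval (x axis), from all 12 libraries (black) and without the 2 libraries standing apart (red). HK1 and LDHB lie below 0, PKM lies nearest to 0 at 0.95, and SLC2A2 moves most between the fits, from 8.54 to 10.04.

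Members were ordered by median CPM per kilobase of exon (union of annotated exons). In HepG2 the order was SLC2A3 (206), PKM (185), HK2 (94.7), SLC2A1 (86.3), ALDOC (50.8), PKLR (22.4), SLC2A2 (7.71), HK1 (1.89) and LDHB (0.401). The ranges of neighbours overlapped except between PKM and HK2, PKLR and SLC2A2, and HK1 and LDHB. In SH-SY5Y the order was LDHB (227), PKM (99.9), HK1 (18.0), SLC2A1 (16.4), HK2 (12.2), ALDOC (9.40), SLC2A3 (0.306), PKLR (0.0438) and SLC2A2 (0.00583). There, neighbours overlapped between LDHB and PKM, HK1 and SLC2A1, HK2 and ALDOC, and PKLR and SLC2A2. The order of some neighbours depends on the length used: per kilobase of the longest transcript, PKM (525) came before SLC2A3 (287) and SLC2A1 (111) before HK2 (99.4) in HepG2, and ALDOC (13.9) before HK2 (12.8) in SH-SY5Y, with no other change of order.

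The use of forms within a family was read from ratios of counts per kilobase within each library, which do not depend on the scaling between libraries. Among SLC2A1, SLC2A2 and SLC2A3, SLC2A3 made up 65.0% ± 10.3 (SD, n = 6) of HepG2 transcripts per kilobase and 1.74% ± 0.355 in SH-SY5Y, where SLC2A1 made up 98.2% ± 0.416. The liver form SLC2A2 was a minor share of HepG2, at 2.19% ± 0.805. In HepG2 EXACT1 replicate 1 SLC2A1 exceeded SLC2A3, at 55.2% against 44.2%. Without the 2 libraries that stood apart, HepG2 held 69.2% ± 1.95 SLC2A3, 28.3% ± 1.86 SLC2A1 and 2.51% ± 0.192 SLC2A2 (SD, n = 5). HK1 made up 3.56% ± 4.10 of HK1 and HK2 in HepG2 and 64.2% ± 11.6 in SH-SY5Y, and 1.88% ± 0.200 and 59.7% ± 3.65 (SD, n = 5) without the 2 libraries that stood apart. PKM remained the larger pyruvate kinase in both lines, with PKLR at 10.7% ± 1.10 of the pair in HepG2 and 0.0325% ± 0.0152 in SH-SY5Y. With the length of the longest transcript, 3016 bases for PKM in place of 8571 bases of union exon, these shares were 4.20% ± 0.467 and 0.0119% ± 0.00557. LDHB made up 0.0593% ± 0.0222 of LDHA and LDHB in HepG2 and 69.9% ± 2.08 in SH-SY5Y. ALDOA was the main aldolase in both lines, at 92.6% ± 0.345 and 89.7% ± 0.646.

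All 6 ratios differed between the lines (two-sided exact permutation test, 6 libraries against 6, p and adjusted p = 0.0021645 for each, the smallest that this design allows). On the log2 scale, LDHB to LDHA averaged -10.82 in HepG2 and 1.22 in SH-SY5Y, a difference of -12.04. PKLR to PKM averaged -3.07 against -11.59, a difference of 8.52. SLC2A3 to SLC2A1 averaged 1.02 against -5.83, a difference of 6.86, and SLC2A2 to SLC2A1 -4.01 against -10.73, a difference of 6.72. In the SH-SY5Y libraries without any SLC2A2 count, that last ratio was set by the 1 count added to each gene. With 0.5 added instead, the SH-SY5Y mean of SLC2A2 to SLC2A1 was -11.27 and the difference 7.26. The low values of LDHB, SLC2A2, SLC2A3 and PKLR in 1 line also enter these ratios, so the limit given for them above applies here. HK1 to HK2 averaged -5.24 against 0.93, a difference of -6.16. ALDOC to ALDOA averaged -3.64 against -3.13, so that ALDOC, although higher in HepG2 in CPM, was lower there relative to ALDOA by 0.51. Without the 2 libraries that stood apart (5 against 5, exact permutation p = 0.00794 for each, the smallest possible), the differences were -12.19 for LDHB to LDHA, 8.43 for PKLR to PKM, 7.12 for SLC2A3 to SLC2A1, 7.78 for SLC2A2 to SLC2A1, -6.28 for HK1 to HK2 and -0.50 for ALDOC to ALDOA. Both aldolases were higher in HepG2, ALDOA by a log2 difference of 2.99 (SE 0.46, edgeR adjusted p = 0.000166).

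HepG2 EXACT1 replicate 1 lay above the range of the other HepG2 libraries for 6 members and below it for 3. SH-SY5Y control replicate 2 lay above the range of its line for 5 and below it for 2. PKM, ALDOC and SLC2A1 were above in both and HK2 was below in both. For PKM the log2 distance from the mean of the others was 1.57 and 1.28, for ALDOC 1.92 and 1.73, and for HK2 -2.11 in each. Their labels differ in line and in plasmid. The ratio of HK1 to HK2 was -2.88 in the HepG2 library, against -5.92 to -5.52 in the other 5, and 2.72 in the SH-SY5Y library, against 0.36 to 0.93. The HepG2 library was also the lowest of its line in PKLR to PKM, at -3.24 against -3.18 to -2.83, and in ALDOC to ALDOA, at -3.77 against -3.67 to -3.57. The SH-SY5Y library lay inside the range of its line in both.

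No member was called between EXACT1 and control in either line. In HepG2 0.00% of 17139 genes were called, with 164 at an unadjusted p under 0.05, and in SH-SY5Y 0.00% of 19853, with 200. With DESeq2 the calls were 11 and 5, and with limma voom (sample weights) 1 and 1, with 0 members among them. Groups did not overlap for 0 of 9 members in HepG2, against 10.2% of all genes, and for 0 of 8 in SH-SY5Y, against 8.03%, where SLC2A2 had too few counts to be tested. Without the library that stood apart these counts were again 0, against 16.8% and 13.8% of all genes.

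In HepG2 the log2 fold changes, EXACT1 minus control, ran from -0.51 for HK2 (SE 0.55) to 0.87 for ALDOC (SE 0.50), with edgeR adjusted p between 0.792 and 0.799. Without EXACT1 replicate 1, 8 of the 9 lay between -0.07 and 0.10. ALDOC then had 0.05 with a 95% interval from -0.10 to 0.20, PKM 0.02 (-0.11 to 0.15), HK2 -0.07 (-0.24 to 0.09) and SLC2A3 -0.01 (-0.20 to 0.17). LDHB, at about 1 CPM, had 0.47 (-0.68 to 1.61).

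In SH-SY5Y they ran from -0.79 for ALDOC (SE 0.54) to 0.57 for HK2 (SE 0.50), with edgeR adjusted p between 0.796 and 0.965. Without control replicate 2, LDHB had -0.03 (95% interval -0.18 to 0.12), HK1 -0.01 (-0.20 to 0.19), PKM -0.01 (-0.17 to 0.15), SLC2A1 0.10 (-0.12 to 0.31), ALDOC 0.10 (-0.21 to 0.41) and HK2 0.16 (-0.09 to 0.41). SLC2A3 had 0.21 (-0.50 to 0.93) and PKLR -0.59 (-2.93 to 1.75). In both lines the intervals given here leave out a library that stood apart in these same data, and the SEs with all libraries are wider. The intervals therefore do not bound the effect of EXACT1, and they do not show that the plasmids act alike.

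**Figure D2:**
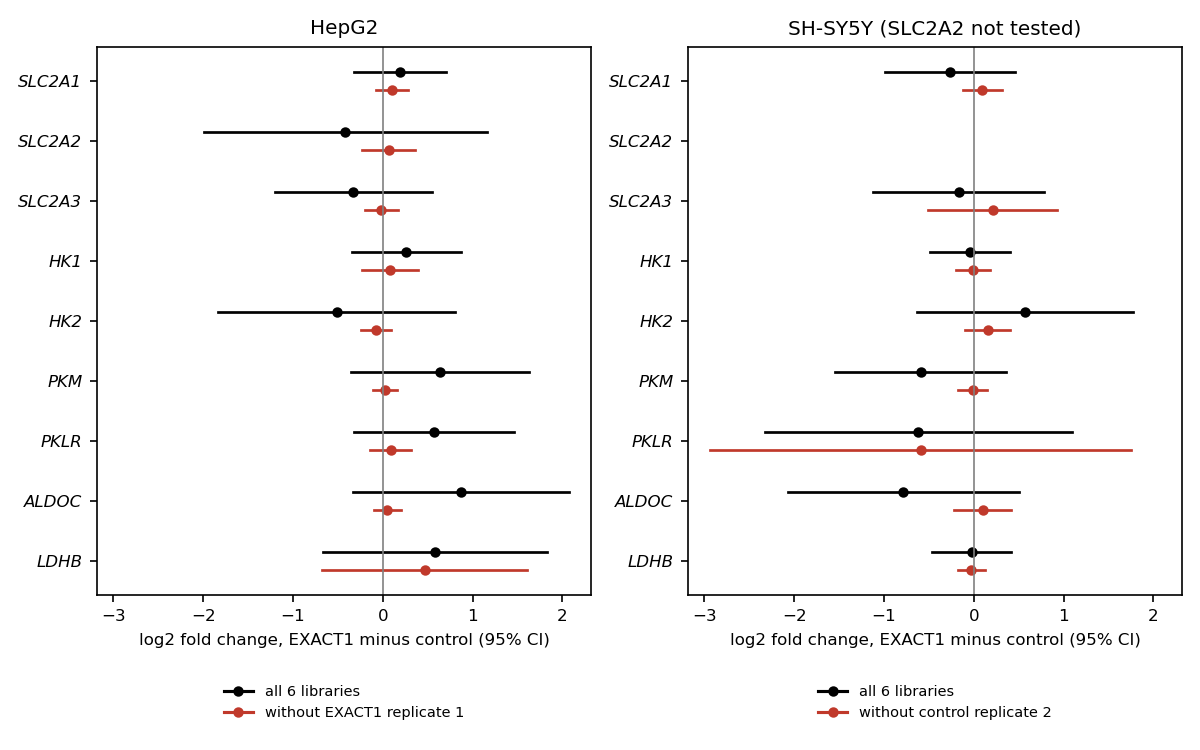
Log2 fold change, EXACT1 minus control, with its 95% confidence interval for each member in HepG2 (left) and SH-SY5Y (right), from all 6 libraries (black) and without the library standing apart (red). Every interval includes 0, and most narrow without that library, while PKLR in SH-SY5Y stays wide.

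The effect of EXACT1 was not called different between the lines for any member (edgeR interaction test, 0.00% of 22009 genes called, 1907 at an unadjusted p under 0.05, 26 called by DESeq2 and 1 by limma voom). The lowest adjusted p among the members was 0.487, for PKM, PKLR and ALDOC. Their log2 differences of effect were 1.31, 1.26 and 1.74 with all libraries and 0.03, 0.67 and -0.05 without the 2 that stood apart. The 6 ratios of forms gave 12 tests of EXACT1 against control, in which the groups overlapped each time (two-sided exact permutation test, 3 against 3, lowest p = 0.2, adjusted p at least 0.933). Such a test cannot go below 0.1.

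Of 95 other genes in 8 lists around these steps, 87 were tested for the line difference, of which 58 were called higher in HepG2, 13 higher in SH-SY5Y and 16 neither. Their median log2 difference was 1.41, against -0.25 over all genes tested. Among 11 other glucose transporters tested, 7 were called higher in HepG2 and 0 higher in SH-SY5Y. They included the urate and glucose carrier SLC2A9 at 48.2 ± 10.00 against 0.131 ± 0.0575 CPM (SD, n = 6 per line), SLC2A10 (log2 difference 3.99, SE 0.26) and the fructose carrier SLC2A5 (4.43, SE 0.95).

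Of the 5 other genes listed for glucose phosphorylation, 3 were higher in HepG2: GCKR at 29.9 ± 13.4 against 0.174 ± 0.0613 CPM (SD, n = 6 per line), HKDC1 at 28.0 ± 1.86 against 0.0832 ± 0.0720 CPM, and ADPGK, which uses ADP, at 62.9 ± 4.14 against 36.8 ± 2.51 CPM. Of 14 other glycolytic enzymes tested, 12 were higher in HepG2, LDHA among them at 3842 ± 262 against 606 ± 56.7 CPM. Both exceptions were phosphofructokinases, PFKM at 2.90 ± 0.451 against 144 ± 4.86 CPM and PFKP at 5.13 ± 2.27 against 74.6 ± 26.0 CPM. The muscle and platelet forms were thus lower in HepG2, while the liver form PFKL was among the 12.

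Of 17 genes for lactate and pyruvate transport and pyruvate dehydrogenase, 10 were higher and 3 lower in HepG2. The lactate exporter SLC16A3 stood at 1239 ± 678 against 3.07 ± 0.936 CPM, and SLC16A7 at 2.79 ± 1.29 CPM against 0 in every SH-SY5Y library, at least 85.9-fold higher in HepG2 against a floor of 3 counts per library. EMB (embigin), a chaperone of such carriers, was lower in HepG2 (log2 difference -8.29, SE 0.73). Of 7 genes for gluconeogenesis and glucose release, 5 were higher, among them G6PC1 (104.9 ± 23.2 against 0.109 ± 0.0635 CPM) and PCK1 (131 ± 27.5 against 0.147 ± 0.0795 CPM), and FBP1 was lower (0.207 ± 0.167 against 5.05 ± 2.58 CPM). Of 10 glycogen genes 8 were higher, led by the liver phosphorylase PYGL (log2 difference 6.35, SE 0.52).

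Among 5 genes that set fructose 2,6-bisphosphate, PFKFB1 and PFKFB4 were higher in HepG2 and TIGAR lower. Of 18 transcription and splicing regulators 11 were higher and 4 lower. The liver factors HNF4A (293 ± 33.5 against 0.450 ± 0.133 CPM) and FOXA2 were among those higher, and MYCN (0.0116 ± 0.0284 against 17.4 ± 2.84 CPM) among those lower. With EXACT1, 0 of the 79 list genes tested in HepG2 and 0 of the 82 tested in SH-SY5Y were called.

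Over the 12 libraries, the genes whose log2 CPM followed each member most closely were named among 10364 genes with a mean of at least 10 CPM. These libraries share 2 lines and 2 libraries that stood apart, which every Pearson r takes in, and it is given as a description. SLC2A1 was followed by the glycolytic enzyme PGAM1 (r = 0.997) and ALDH1L1, SLC2A2 by PCBP1 (0.986) and LATS2, and SLC2A3 by HHEX (0.999) and DPP4. HK1 was followed by KIF1A (0.998) and COL4A2, and HK2 by TMED10 (0.999) and AFDN. PKM was followed by SNHG16 (0.998) and the TPI1 pseudogene TPI1P1, and PKLR by SLC35D2 (0.999) and SLC12A7. ALDOC was followed by HEXIM2 (0.998) and the enolase ENO1 (0.998), and LDHB by IGFBPL1 (0.998) and HAND2-AS1.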

How the data were processed

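The authors deposited unnormalized whole-number counts per gene (Ensembl ID) and library. The submitters' processing notes name cutadapt, HISAT2 and StringTie, besides edgeR and limma, and build GRCh38 (hg38). Their versions and settings, with the strand setting, were not given in the sources used here. HepG2 and SH-SY5Y counts were fitted with edgeR 4.0.16 in R 4.3.3 (filterByExpr, TMM, robust quasi-likelihood F test, two-sided) and adjusted by Benjamini-Hochberg over all genes tested, with calls at 0.05. The line difference and the interaction used 12 libraries, and EXACT1 was tested in 6 libraries per line. Ratios used counts plus 1 per kilobase of union exon (GENCODE release 29), with exact permutation tests in SciPy 1.17.1. Intervals are 95%. Fits were also run on counts simulated independently for each gene from its mean and fitted dispersion. Those counts lacked the shared shifts of the 2 libraries that stood apart, so nothing is concluded from them about the tests here. Alternatives used DESeq2 1.42.0, limma 3.58.1, other scalings, filters, a replicate block and left-out libraries. Family shares without the 2 libraries that stood apart, and shares and order by longest transcript, were added after seeing the data, as was the choice of promoter windows shown.

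The members, lists and tests were chosen with earlier results of these data known. All 9 members are named, plus up to 4 called genes per list by largest log2 fold change with a mean of at least 1 CPM in a line, the ratio partners ALDOA and LDHA, and the 2 genes most like each member. Genes named only as falling in a count, the opposite-strand or pseudogene neighbours and the markers fall outside this rule and were named after their values were seen. Nothing in the labels says that replicates came from separate cultures. The p-values therefore reflect spread among samples that could be technical. Every pair of replicates differed by more than sampling noise (chi-square per gene from 19.2 to 1201). Levels of mNeonGreen and EXACT1 were not analysed here, and some listed genes are not reported here.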

Additional observations from a re-analysis of the deposited data

Results flagged for a closer look

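Of 30 sets of 6 values examined (9 levels and 6 ratios in each line), 17 had 1 library farther from the others than Dixon's test allows at 95%. HepG2 EXACT1 replicate 1 was that library in 10 sets and SH-SY5Y control replicate 2 in 6. For 1 set of independent, normally spread values chance gives about 1 in 20. The 30 sets come from the same libraries, and the ratios reuse the levels, so that rate cannot be set against the 17.

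In HepG2 EXACT1 replicate 1 the levels concerned were SLC2A2 at 4.33 CPM (others 20.5 to 28.0), SLC2A3 at 596 CPM (1151 to 1379), HK1 at 18.8 CPM (10.4 to 12.6) and HK2 at 134 CPM (517 to 612). PKM stood there at 4633 CPM (1506 to 1591), PKLR at 181 CPM (64.6 to 83.0) and ALDOC at 558 CPM (137 to 160). The log2 ratio of SLC2A2 to SLC2A1 was -6.56 (others -3.67 to -3.36), that of SLC2A3 to SLC2A1 was -0.32 (1.06 to 1.38) and that of HK1 to HK2 was -2.88 (-5.92 to -5.52).

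In SH-SY5Y control replicate 2, SLC2A1 stood at 128 CPM (others 65.1 to 81.6), SLC2A2 at 0.349 CPM (0 to 0.0828) and HK2 at 17.0 CPM (59.1 to 81.4). PKM stood at 2081 CPM (820 to 897) and ALDOC at 91.8 CPM (23.7 to 33.6). The log2 ratio of HK1 to HK2 was 2.72 (0.36 to 0.93). The remaining set was LDHB to LDHA in HepG2, where control replicate 2 had a log2 ratio of -12.25 (others -10.97 to -10.26).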

How the results depend on the processing

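A stricter filter, a mean of at least 5 CPM, left 8058 of 12171 tested genes called between the lines, against 14247 of 22009 in the analysis reported. The lower count goes with fewer genes tested, and all 9 members stayed called. The difference of the EXACT1 effect between lines had 26 calls with DESeq2, 1 with limma voom and 2 without both libraries that stood apart. EXACT1 had 11 calls in HepG2 and 5 in SH-SY5Y with DESeq2, and 1 in each with limma voom. Uncalled values changed sign under some settings. The difference of effect was -0.018 for SLC2A1 with voom and, without both libraries, -0.32 for SLC2A2 and -0.047 for ALDOC. SLC2A2 in HepG2 was 0.046 with voom. In SH-SY5Y, voom gave 0.11 for SLC2A1, 0.34 for SLC2A3 and 0.031 for ALDOC. Library totals gave 0.040 for SLC2A3, 0.11 for HK1 and 0.12 for LDHB, and no filter gave 0.0056 for LDHB. With control libraries only (3 against 3, smallest exact permutation p = 0.1), the log2 ratio differences were 6.61 for SLC2A2 to SLC2A1, 7.21 for SLC2A3 to SLC2A1, -7.13 for HK1 to HK2, 8.38 for PKLR to PKM, -0.47 for ALDOC to ALDOA and -12.40 for LDHB to LDHA, each in the same direction, with fewer libraries. The cause of the other shifts was not tested.

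Leaving out each library in turn gave 0 to 2 calls for EXACT1 in HepG2 and 0 to 1 in SH-SY5Y. In SH-SY5Y the values ran from -1.09 to 0.10 for ALDOC, -0.091 to 0.015 for HK1, -0.028 to 0.016 for LDHB, -0.42 to 0.10 for SLC2A1 and -0.37 to 0.21 for SLC2A3. SLC2A2 in HepG2 ran from -0.81 to 0.067. The difference of effect ran from -0.80 to 5.78 for SLC2A2, -0.54 to 0.13 for SLC2A3 and 0.76 to 2.05 for ALDOC.

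Replicate numbers were not taken to pair the libraries, since the correlation did not exceed 0.1 in every pair: same-numbered libraries correlated at 0.01, -0.02 and 0.03 in HepG2 and 0.24, 0.09 and 0.03 in SH-SY5Y. The value of 0.24 belongs to the SH-SY5Y libraries numbered 1, which also shared raised DCN, LUM and COL3A1. Whether those libraries have a common origin was not tested. With a replicate block 13769 genes were called between the lines, with the 9 members among them, and 0 for EXACT1 in either line.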
